A study of Mus musculus with 39 samples.

Results

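Enhancer contacts at the mouse globin loci were compared between erythroblasts derived from foetal liver (MFL) and mouse embryonic stem (mES) cells. The comparison comprised 6 of the 39 samples of the series, chosen because their labels name the 4 enhancer viewpoints R1, R2, HS1 and HS2: 3 replicates of MFL erythroblasts and 3 of mES cells. The series as a whole asked how the self-interacting domain of active α-globin forms, and used NG Capture-C, in which chromatin is crosslinked, cut with DpnII and ligated, and the fragments ligated to a chosen viewpoint are captured and sequenced. The MFL samples were wild-type (WT) cells of the C57Bl6 strain, expanded in culture, depleted of Ter119-expressing cells, sorted on CD44 and size, and labelled with BrdU late in culture. Their descriptions give 30 h in differentiation medium, whereas the time field of the same labels gives 0 h, and the name MFL erythroblasts is kept for them. The figures of the study show its captures of MFL cells from R1 and R2 as 30 h. The mES samples were WT E14 cells, 1 established line of 129/Ola background, so that strain and cell type cannot be told apart. The labels number the replicates as biological. No expression was measured in these samples, so the cell types could not be checked against marker genes.

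Globin genes are switched on in erythroid cells by distant enhancers. R1 and R2, also called MCS-R1 and MCS-R2, are α-globin enhancers that lie in introns of Nprl3, a neighbouring gene for a subunit of the GATOR1 complex that restrains mTORC1. HS1 and HS2 are DNase I hypersensitive sites of the β-globin locus control region, which sits in intergenic DNA among olfactory receptor genes. Both loci hold embryonic genes that are used early in development and adult genes that replace them, and mES cells express neither set at an appreciable level. A higher ligation count in a cell population can reflect a contact in more cells or a more stable contact, and these cannot be told apart here.

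The viewpoint fragments on mm9 were chr11:32145277-32146568 (R1) and chr11:32151060-32151883 (R2), both intronic in Nprl3, and chr7:111007506-111007930 (HS1) and chr7:111009550-111009749 (HS2), both intergenic. A stretch of 200 bases of each is given because these are the elements whose contacts were counted, on the plus strand at chr11:32145711-32145910, chr11:32151060-32151259, chr7:111007628-111007827 and chr7:111009550-111009749. Each stretch was picked as the one with the most matches to the GATA, AP1 and CACC letters given here. It was then centred on them as far as the fragment allowed, and for HS2 it is the whole fragment. Capitals mark the letters of a GATA motif, searched on both strands as AGATAA, then as AGATAG, then as TGATAA and then as TGATAG, or of the AP1 core that NF-E2 and its relatives recognise, searched as TGAGTCA and as its reverse complement TGACTCA, and no marked motif overlaps another.
R1: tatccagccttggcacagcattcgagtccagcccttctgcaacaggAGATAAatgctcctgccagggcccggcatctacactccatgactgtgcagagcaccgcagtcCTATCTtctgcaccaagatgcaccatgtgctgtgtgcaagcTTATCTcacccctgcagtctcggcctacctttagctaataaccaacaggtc
R2: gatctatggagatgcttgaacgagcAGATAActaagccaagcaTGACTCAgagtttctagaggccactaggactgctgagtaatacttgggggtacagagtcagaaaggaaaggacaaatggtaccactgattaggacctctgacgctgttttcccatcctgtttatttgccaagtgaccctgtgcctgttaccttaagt
HS1: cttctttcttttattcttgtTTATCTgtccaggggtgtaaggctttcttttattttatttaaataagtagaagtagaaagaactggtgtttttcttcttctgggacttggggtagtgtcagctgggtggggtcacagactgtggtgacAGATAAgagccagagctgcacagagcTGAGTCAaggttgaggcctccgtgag
HS2: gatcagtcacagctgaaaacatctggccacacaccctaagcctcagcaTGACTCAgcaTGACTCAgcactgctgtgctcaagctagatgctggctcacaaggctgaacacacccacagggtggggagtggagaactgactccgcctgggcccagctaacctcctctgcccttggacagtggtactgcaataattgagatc
The R1 stretch held 3 GATA motifs and no AP1 core, whereas the HS2 stretch held 2 AP1 cores side by side and no GATA motif. R2 had 1 of each, and HS1 had 2 GATA motifs and 1 AP1 core. The whole fragments held 4 GATA motifs in R1, 3 GATA motifs in HS1 and 2 AP1 cores in R2. Of all windows of 200 bases, 33.9% on chromosome 11 and 36.1% on chromosome 7 held a GATA motif, and 3.31% and 3.14% held an AP1 core. The stretches of R1, R2 and HS1 were picked for their matches, so these shares cannot measure an enrichment in them. The CACC letters CCACACCC and CCGCACCC, which 1.66% and 1.51% of the windows hold, were in none of the stretches. Such matches describe the letters of the fragments and are no evidence of binding.

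The depth differed between loci and cell types, and sets how finely each contact could be read. Reporter reads per sample ranged from 5332 to 16459 in MFL erythroblasts and from 31013 to 46510 in mES cells over R1 and R2, from 711 to 1822 and from 522 to 573 for HS1, and from 1207 to 3873 and from 3308 to 3767 for HS2. The share of reporter reads on the viewpoint's own chromosome (in cis) was lower in MFL erythroblasts at every viewpoint, at 68.4% ± 1.41 against 84.0% ± 5.35 from R1, 64.4% ± 1.73 against 84.8% ± 4.68 from R2, 59.4% ± 0.14 against 76.9% ± 6.02 from HS1, and 35.0% ± 1.23 against 54.7% ± 5.07 from HS2 (SD, n = 3). All values below were therefore scaled to the cis interactions of each viewpoint. Replicates of a cell type differed by little more than sampling noise per fragment, the chi-square divided by its degrees of freedom being 0.808 to 1.27 in the 12 pairs of R1 and R2 columns, but each pair differed, from at least 1 viewpoint, in its distribution over distance classes and other chromosomes (largest p = 0.00619, chi-square test), so none was counted as a repeat of another. With 3 samples against 3, the two-sided exact permutation test cannot go below p = 0.1, the value obtained whenever the groups did not overlap.

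The first question was how much of an enhancer's contacts stayed in the α-globin domain, the interval covered by a BAC probe of the study, whose fragments run from 32137130 to 32200469 on chromosome 11. R1 placed 38.3%, 40.3% and 40.0% of its cis interactions there in the 3 MFL replicates and 29.5%, 28.1% and 28.6% in the 3 mES replicates. R2 placed 46.3%, 47.7% and 47.2% there in MFL erythroblasts and 34.9%, 33.1% and 34.4% in mES cells. Every MFL replicate was above every mES replicate from both enhancers (log2 difference 0.46 from R1 and 0.47 from R2, exact permutation test, p = 0.1 for each). Counted over all reporter reads, cis and trans, the difference from R2 shrank to 0.07 and the groups overlapped (exact permutation test, p = 0.5). Both enhancers lie inside this interval together with much of Nprl3, so that part of the share in either cell type is contact with their immediate surroundings.

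Within the domain the window of the adult α-globin genes differed by a larger factor. This window, 32182971 to 32196636 from the viewpoint fragment in Hba-a1 to that in Hba-a2, took 8.31%, 9.08% and 8.95% of the cis interactions of R1 in MFL erythroblasts and 2.88%, 3.00% and 2.96% in mES cells. R2 gave 8.79%, 8.29% and 7.43% against 2.90%, 2.91% and 2.89%. The groups were far apart compared with their spread, 2.98-fold from R1 (log2 difference 1.57) and 2.82-fold from R2 (log2 difference 1.49), each with p = 0.1 in the exact permutation test. The SD between the mES replicates was 0.061 percentage points from R1 and 0.0083 from R2, far below the difference between the cell types.

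**Figure D1:**
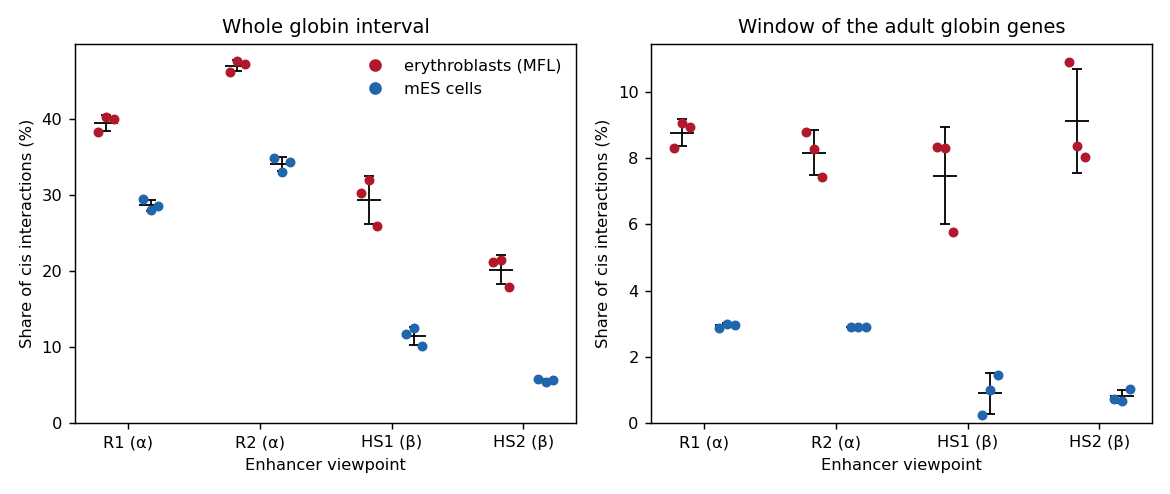
Share of cis interactions (%) that each enhancer viewpoint placed in its globin interval (left) and in the window of the adult globin genes (right), for MFL erythroblasts (red) and mES cells (blue). Points are replicates and black marks the mean ± SD (n = 3). The MFL points lie above the mES points in each of the 8 pairs, with the widest separation for the β-globin gene window, 9.12% against 0.80% from HS2.

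The excess lay on the side of the enhancers that faces the globin genes. In windows of 10 kb, R1 had 4 windows with non-overlapping, higher MFL values among the 10 windows of its globin side within 100 kb, running from 20 to 60 kb, and none on the other side. R2 had 5, from 0 to 50 kb, and none on the other side. The largest fold was in the window 40 to 50 kb from R1, with 487, 611 and 568 interactions per kb per 100000 cis interactions in MFL erythroblasts and 188, 197 and 190 in mES cells. Beyond it the excess dropped abruptly: at 50 to 60 kb the means were still 438 ± 22.3 and 161 ± 7.71, while at 60 to 70 kb they were 156 ± 6.55 and 160 ± 4.25 (SD, n = 3) and overlapped. At 70 to 80 kb they were 193 ± 28.6 and 157 ± 5.39 and overlapped too. In bins of 2 kb, however, the limma test described below called those at 74.1 and 78.1 kb higher in MFL erythroblasts (log2 fold changes 0.67 and 0.61). From 80 to 100 kb the MFL values were below the mES values, with no overlap, and between 100 and 300 kb this held for 18 of 20 windows on each side of R1.

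Comparison of the sides at matched distance gave the same picture without any scaling between samples, since both sides come from the same viewpoint. At 30 to 70 kb, R1 had 439 interactions per kb on the globin side and 140 on the other side in MFL erythroblasts, but 193 on both sides in mES cells. As log2 ratios of the globin side to the other, the MFL replicates had 1.62, 1.73 and 1.60, and the mES replicates −0.04, 0.11 and −0.06 (difference 1.65, exact permutation test, p = 0.1). The ratios from R2 were 1.80, 1.60 and 1.58 against −0.06, 0.00 and −0.05 (difference 1.70, p = 0.1 in the same exact test). Contacts of the enhancers in mES cells were thus nearly symmetric at this distance. At 150 to 500 kb the order was turned, with ratios of −0.24 ± 0.04 in MFL erythroblasts and 0.36 ± 0.05 in mES cells from R1, and −0.27 ± 0.06 and 0.35 ± 0.01 from R2 (SD, n = 3, exact permutation test, p = 0.1 for each).

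**Figure D2:**
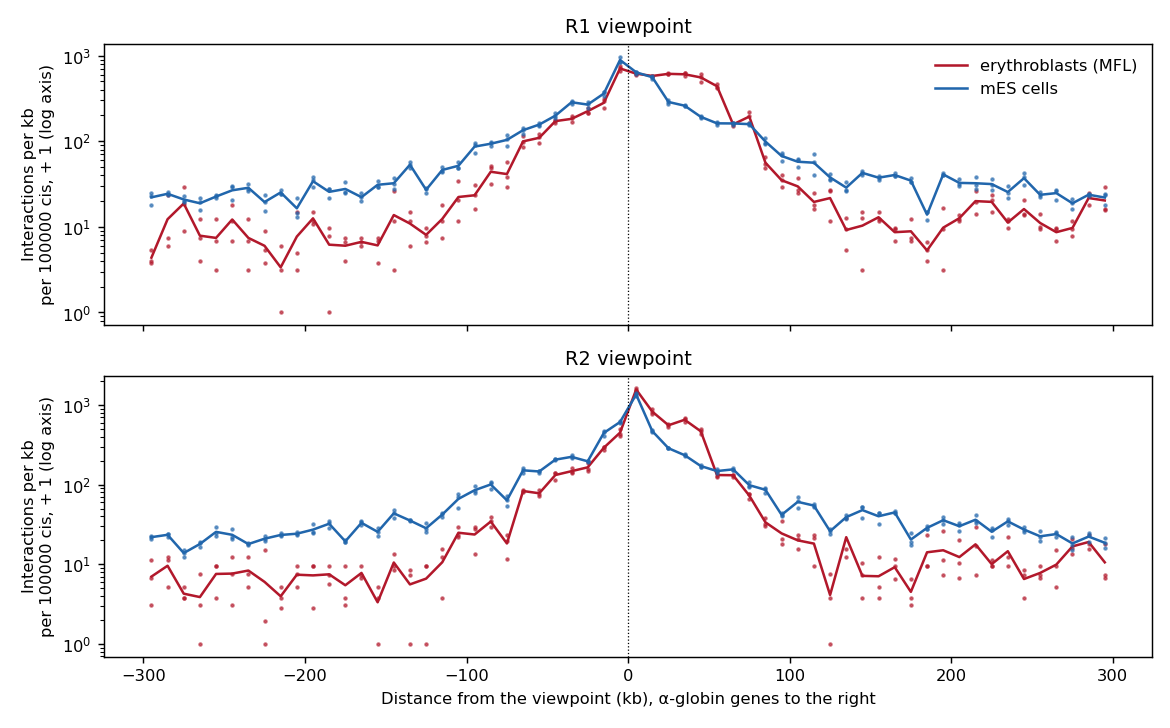
Interactions per kb of R1 (top) and R2 (bottom) in windows of 10 kb against distance from the viewpoint, with the α-globin genes to the right, per 100000 cis interactions plus 1 on a log axis. Dots are replicates and lines are means of MFL erythroblasts (red) and mES cells (blue). The MFL line forms a shoulder that stays between 555 and 614 per kb from 0 to 50 kb right of R1 and falls to the mES line at 60 kb, and it runs below the mES line on the left.

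Gene bodies were counted next, over the 13 protein-coding genes within 250 kb of R1 or R2. A gene sum took the fragments whose centre lay in the gene body, or that held the body where there was no such fragment. A fragment that overlaps a gene but is centred outside it, such as the Hba-1 viewpoint fragment at Hba-a1, was thus left out of its sum. From each enhancer 5 of the 13 genes were higher in MFL erythroblasts with no overlap between groups, all of them α-like globin genes, and 7 were lower. For comparison, 25.8% of the 298 fragments tested from R1 were higher without overlap and 15.4% lower, and 31.4% and 20.7% of the 261 tested from R2. These fragments had a mean of at least 50 and lay within 100 kb, whereas the genes were not filtered and reach farther. The shares are thus not like for like. Gene copies share sequence here: Hba-a1 and Hba-a2 are nearly identical, Hbq1b and Hbq1a are close copies, and the split of reads between copies is uncertain.

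Hba-a1, which encodes adult α-globin, had 1147, 1084 and 1311 interactions with R1 per 100000 cis interactions in the MFL replicates against 288, 352 and 304 in the mES replicates (3.75-fold). R2 had 792, 1076 and 1017 with it against 329, 313 and 337 (2.95-fold). Hba-a2, the second adult copy, gained 3.49-fold from R1 and 3.08-fold from R2. Both adult genes were thus apart between the cell types by several times their spread, from either enhancer.

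The θ-globin genes, of which 1 copy lies downstream of each adult gene, were higher as well. Hbq1b had 806 ± 172.9 interactions with R1 in MFL erythroblasts and 233 ± 59.1 in mES cells (3.47-fold), and 2.34-fold more from R2. Hbq1a was 2.78-fold higher from R1 and 1.90-fold from R2. The embryonic gene Hba-x, which encodes ζ-globin and is the nearest of the cluster to the enhancers, changed least of the α-like genes from R1, and Hbq1a did from R2. Hba-x had 784, 1279 and 749 interactions with R1 in MFL erythroblasts and 584, 616 and 570 in mES cells (1.59-fold), and 1186 ± 162.4 against 593 ± 38.7 with R2 (2.00-fold). Per kb of gene, the levels in MFL erythroblasts from R1 were 546 on Hba-x, 1236 on Hba-a1 and 1386 on Hba-a2, whereas in mES cells they were 344, 330 and 397. In these sums, which leave the Hba-1 fragment out of Hba-a1, the embryonic and adult genes had levels of like size in mES cells, although the adult genes are farther away.

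Nprl3, the host gene of both enhancers, took 22306, 23651 and 23787 interactions of R1 per 100000 in MFL erythroblasts against 26198, 24017 and 25258 in mES cells. Its groups did not overlap, although the log2 difference was −0.11 (exact permutation test, p = 0.1). From R2 its groups overlapped, at 29741 ± 786.4 and 29105 ± 1033. The other 7 genes lay outside the cluster, and of these 6 from R1 and 7 from R2 were lower in MFL erythroblasts with no overlap and none was higher. Nsg2, a gene for a neuronal vesicle protein over 200 kb from R1 on the side away from the globin genes, had 504, 260 and 394 interactions with R1 in MFL erythroblasts against 1423, 1454 and 1225 in mES cells, 3.54-fold more in the latter. Sh3pxd2b, which encodes an adaptor of podosomes and lies past the globin genes, was 2.94-fold and Ubtd2, a ubiquitin-domain gene, 2.13-fold more contacted in mES cells from R1, and these were 3.92-fold for Nsg2, 3.73-fold for Sh3pxd2b and 2.82-fold for Ubtd2 from R2. The nearer genes differed less: Rhbdf1, an inactive rhomboid, was 1.51-fold, Il9r, the receptor of interleukin 9, 1.35-fold, and Mpg, a DNA repair glycosylase, 1.28-fold more contacted in mES cells from R1. Snrnp25, a gene of the minor spliceosome, was the exception with 448, 976 and 779 against 947, 804 and 1034 from R1, which overlap, although its R2 groups did not (476 ± 93.7 against 735 ± 36.9).

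**Figure D3:**
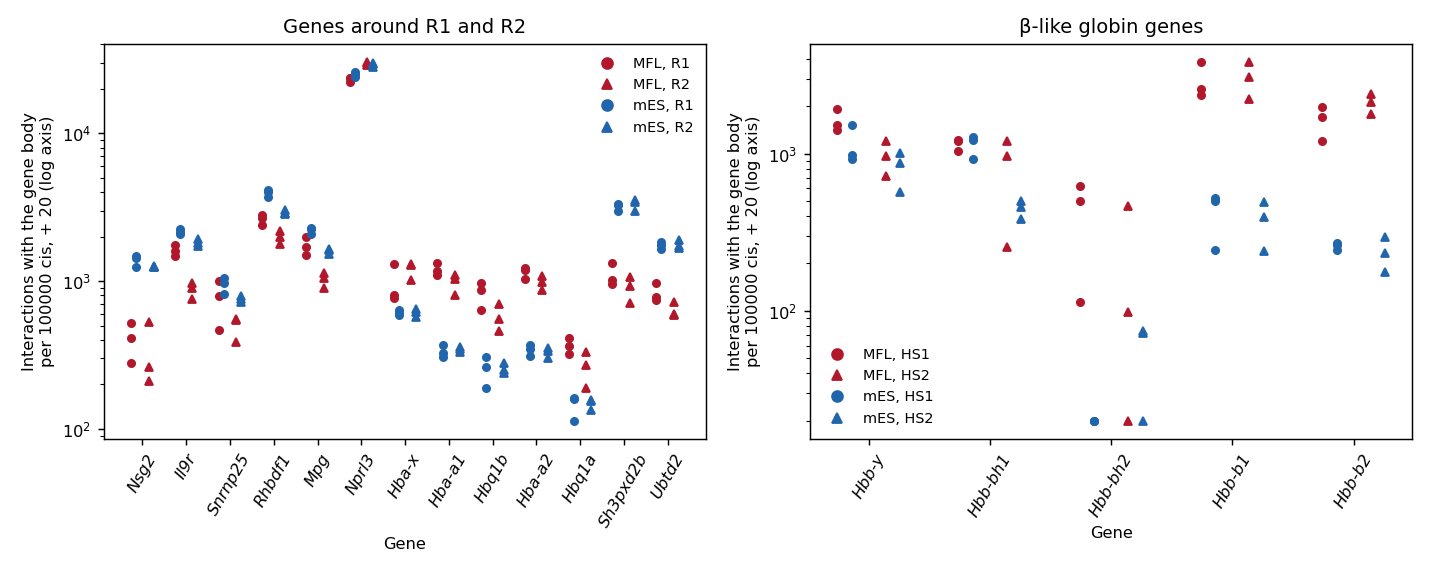
Interactions with gene bodies per 100000 cis interactions, plus 20, on a log axis, for each replicate. The left plot shows the 13 genes around R1 (circles) and R2 (triangles) in genome order, and the right plot the 5 β-like globin genes from HS1 (circles) and HS2 (triangles), with MFL erythroblasts in red and mES cells in blue. Red lies above blue on the α-like globin genes and on Hbb-b1 and Hbb-b2, and below blue on Nsg2, Sh3pxd2b and Ubtd2.

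The other fragments that the study used as viewpoints served as fixed points along the locus. The Hba-1 viewpoint fragment, in a coding exon of Hba-a1, had 905, 802 and 625 interactions with R2 in MFL erythroblasts and 175, 186 and 197 in mES cells, 4.19-fold, and the Hba-2 fragment in Hba-a2 4.18-fold. From R1 the same fragments were 3.28-fold and 3.20-fold higher. The CTCF sites past the globin genes did not share in this. CTCF +44 had 117 ± 11.6 interactions with R1 in MFL erythroblasts and 109 ± 27.8 in mES cells, and CTCF +48 had 98.2 ± 38.1 and 92.7 ± 21.0 (SD, n = 3), with overlapping groups for both sites from both enhancers. The CTCF −39.5 fragment in a coding exon of Nprl3 also overlapped (228 ± 52.2 against 249 ± 16.6 from R1). Probe site EX, a fragment annotated to exons of both Mpg and Nprl3, had 28.3, 42.2 and 84.0 interactions with R2 in MFL erythroblasts and 127, 97.7 and 111 in mES cells, which did not overlap (log2 difference −0.95 on the scale of value + 20), while from R1 the groups overlapped. Sites A and C overlapped from both enhancers, as did the fragments labelled chac2, cpeb4 and fbxw11, which held 12 reads or fewer in either cell type. Site CX had 0 reads in each MFL replicate from R1 against 11 in mES cells, a difference that was not detectable at this depth, and overlapped from R2. Site E, beside R2, held no counted fragment.

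Single DpnII fragments were then tested across chromosome 11 with limma on log2(value + 20), among fragments with a mean of at least 50. From R1, 56 of 298 fragments (18.8%) were higher in MFL erythroblasts and 19 (6.38%) lower at an adjusted p under 0.05. From R2, 75 of 261 (28.7%) were higher and 33 (12.6%) lower. All 56 fragments that rose from R1 were on the globin side, none farther than 74.5 kb, and 72 of the 75 that rose from R2 were too, none farther than 50.3 kb. Of the fragments that fell, 15 of 19 from R1 and 30 of 33 from R2 were on the other side. The fragments tested numbered 164 on the globin side and 134 on the other from R1, and 149 and 112 from R2. No tested fragment lay beyond 100 kb, because the minimum of 50 removes thinly covered distances. As deposited, per 100000 reporter reads, 41 rose and 38 fell from R1, and 50 rose and 54 fell from R2, so the balance of directions depends on the scaling. Without mES replicate 2 the fragments called from R1 numbered 49 in both directions together.

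The fragments with the smallest adjusted p that rose were all at the α-globin genes. From R1 the first was 32184113 to 32184705 in coding sequence of Hba-a1, with 588, 585 and 651 interactions in MFL erythroblasts and 142, 159 and 142 in mES cells. Its log2 fold change was 1.90 ± 0.17 (standard error), with an adjusted p of 2.15e-05 in limma. The next 4 lay in exons of Hbq1b, Hba-a2 and Hba-a1, with log2 fold changes of 1.61 to 2.04. From R2 the Hba-1 and Hba-2 fragments led (log2 fold changes 1.94 and 1.92, adjusted p = 2.55e-07 for both from limma), followed by a fragment 0.5 kb from Hbq1b with 2.03, another 1.2 kb from Hba-a1 with 1.77, and an exonic fragment of Hba-a2 with 1.49. The leading fragments that fell lay within Nprl3 close to the viewpoints. The first from R2 was an intronic fragment of 35 bases at 32149606 to 32149640, 1.8 kb away, with 84.8, 106 and 140 interactions in MFL erythroblasts and 511, 423 and 373 in mES cells. Its log2 fold change was −1.82 ± 0.21 (standard error), with an adjusted p of 6.42e-06 in limma. An exonic fragment of Nprl3, 32141862 to 32142056, fell from both enhancers, by 0.78 from R1 and by 1.07 from R2 on the log2 scale (adjusted p = 0.00156 and 0.000108 from limma).

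The most contacted fragments beyond 10 kb differed between the cell types. In MFL erythroblasts they were exonic fragments of Hba-a1 and Hba-a2 from R1, with means of 608, 590 and 580 interactions. In mES cells the leading fragments from R1 were all intronic in Nprl3, between 10.8 and 12.1 kb away and with 370, 366 and 346 interactions, and none of these 3 passed the threshold (adjusted p of 0.213 to 0.479 in limma). From R2 the Hba-1 and Hba-2 fragments led in MFL erythroblasts, followed by an intronic Nprl3 fragment 15.0 kb away with 563 against 276 interactions, and in mES cells the leading 3 lay in Nprl3 within 12.4 kb. The leading fragments in mES cells thus lay just past the cut of 10 kb, inside the gene that holds both enhancers, while the adult genes headed the list in MFL erythroblasts.

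In bins of 2 kb, which hold more reads, distances beyond 100 kb could be tested as well. From R1, 25 of 178 bins (14%) were higher in MFL erythroblasts and 60 (33.7%) lower, and from R2, 26 of 161 (16.1%) were higher and 84 (52.2%) lower (limma, adjusted p under 0.05). Of the bins that rose, 23 from each enhancer were within 100 kb on the globin side. From R2, 2 others lay within 100 kb on the other side, with log2 fold changes of 0.56 and 0.51. The rest lay far out on that side, at −404 and −402 kb from R1 (log2 fold changes 1.28 and 1.36) and −407 kb from R2 (1.18), and the second of the R1 bins and the R2 bin are the same one. The bins that fell from R1 comprised 22 of the 49 tested within 100 kb on the other side, 5 of 47 on the globin side and 33 of 82 beyond 100 kb. Those from R2 were 39 of 48, 11 of 47 and 34 of 66. The medians over all tested bins were −0.47 and −0.73 on the log2 scale. With edgeR on the recovered reads and TMM scaling, 33 bins rose and 31 fell from R1, and 37 rose and 37 fell from R2. In limma itself, 20 rose and 16 fell from R1 without mES replicate 1, and 21 and 22 without mES replicate 3. With no filter on low values, 15 rose and 8 fell from R1, and 18 rose and 2 fell from R2. The excess of losses thus depended on the test, on the filter and, from R1, on single samples. The total of 85 bins called from R1 fell to 36, 49 and 43 without mES replicate 1, 2 or 3, and that of 110 from R2 to 71 without mES replicate 3.

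R1 and R2 were then compared with each other. The log2 ratio of the R1 share to the R2 share in the α-globin domain averaged −0.25 ± 0.02 for MFL erythroblasts and −0.25 ± 0.02 for mES cells (SD, n = 3, exact permutation test, p = 0.7), with R2 the higher in each sample. For the gene window the ratios were −0.08, 0.13 and 0.27 against −0.01, 0.04 and 0.03 (p = 0.5 in the exact permutation test). Scaled to all reporter interactions, the groups did not overlap and the ratio was higher in MFL erythroblasts, by 0.10 in the domain and 0.18 in the gene window on the log2 scale (exact permutation test, p = 0.1 for each), and without MFL replicate 1 the gene window groups parted as well, by 0.18.

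At the β-globin locus, the interval from the adult genes to HS2, 110961969 to 111007025 on chromosome 7 by its first and last counted fragments, was compared in the same way. HS1 placed 30.2%, 32.0% and 25.9% of its cis interactions there in MFL erythroblasts and 11.7%, 12.5% and 10.1% in mES cells, 2.57-fold more. HS2 placed 21.1%, 21.5% and 18.0% there against 5.75%, 5.37% and 5.64%, 3.61-fold more. The groups did not overlap from either site (log2 differences 1.36 and 1.85, exact permutation test, p = 0.1 for each), and replicate MFL3 had the lowest MFL share from both.

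The window of the adult β-globin genes, 110961969 to 110976454, differed most of the 4 intervals. From HS2 it held 10.9%, 8.38% and 8.05% of the cis interactions in MFL erythroblasts and 0.73%, 0.66% and 1.01% in mES cells, 11.4-fold more (log2 difference 3.52, exact permutation test, p = 0.1). From HS1 it held 8.33%, 8.31% and 5.78% against 0.22%, 1.00% and 1.45%, 8.41-fold more (log2 difference 3.42, p = 0.1 in the same exact test). The mES values of HS1 stand on 11 reads in all, and those of HS2 on 45, against 152 and 206 in MFL erythroblasts. The genes in this window are close copies whose haplotype differs between the strains used, and the part of mapping in these folds was not tested. The windows of 40 to 50 kb on the globin side had the largest fold within 100 kb from HS2, 15.1-fold, with 499, 353 and 445 interactions per kb in MFL erythroblasts and 20.9, 32.9 and 31.9 in mES cells.

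**Figure D4:**
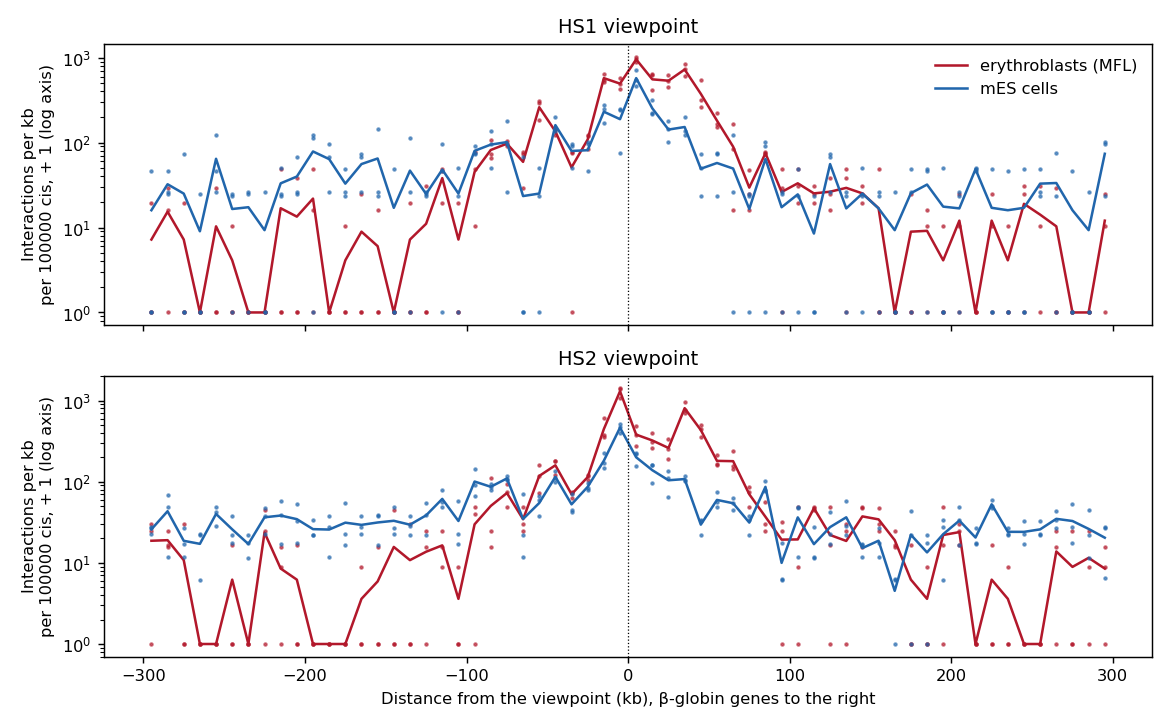
Interactions per kb of HS1 (top) and HS2 (bottom) in windows of 10 kb against distance from the viewpoint, with the β-globin genes to the right, per 100000 cis interactions plus 1 on a log axis. Dots are replicates and lines are means of MFL erythroblasts (red) and mES cells (blue), with values of 0 drawn at 1. The MFL line is above the mES line from about −20 to 80 kb and has a separate rise at 30 to 50 kb on the right, where it reaches 805 against 107 per kb from HS2.

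HS1 and HS2 had windows of higher contact on both sides. Within 100 kb, HS1 had 6 of 10 higher windows without overlap on the globin side and 3 of 10 on the other side, and HS2 8 of 10 and 4 of 10. R1 and R2 had 0 of 10 on the other side, although limma called 3 fragments and 2 bins higher there from R2, and the difference between loci was not tested. On the far side a separate rise stood at 50 to 60 kb from HS1, with 310, 181 and 289 interactions per kb in MFL erythroblasts against 22.5, 49.9 and 0 in mES cells, in the stretch that holds the hypersensitive site HS60. From HS2 the same distance had 71.3, 162 and 117 against 36.6, 65.8 and 58.6. The HS60 fragment itself had 6 reads from HS1 in MFL erythroblasts and 0 in mES cells, which is at least 1.17-fold higher against a floor of 3 reads over the 3 mES replicates, and 1 read in all from HS2. The sides differed most at 30 to 70 kb, where the log2 ratio of the globin side to the other from HS2 reached 2.51, 1.72 and 2.04 in MFL erythroblasts and 0.38, 0.10 and −0.49 in mES cells (difference 2.09, exact permutation test, p = 0.1). From HS1 it was 1.45, 1.66 and 1.22 against −0.81, 0.22 and 0.68 (difference 1.41, p = 0.1 in the exact permutation test). On the globin side this class takes in the adult genes, close copies whose haplotype differs between the strains. The part of mapping in these ratios was not tested.

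Among the β-like globin genes, the adult genes were higher in MFL erythroblasts from both sites. The fragment labelled Hbb-b1 in the series lies in the gene annotated as Hbb-b2, and the reverse, and the annotated names are used here. Hbb-b1 had 3800, 2206 and 3047 interactions with HS2 in MFL erythroblasts and 471, 219 and 373 in mES cells (8.52-fold), and 3810, 2568 and 2332 against 225, 499 and 482 with HS1 (7.23-fold, on 58 and 5 reads). Hbb-b2 had 2375, 1765 and 2109 against 157, 274 and 213 with HS2 (9.71-fold). From HS1 the 36 MFL reads stood against 3 mES reads, a ratio of 7.03 with a 95% exact counting interval of 2.22 to 35.7. These genes are close copies, their haplotype differs between C57BL/6 and 129 mice, and reads were mapped to a C57BL/6 genome. The part of mapping in these differences was not tested. The groups of both adult genes did not overlap from either site (exact permutation test, p = 0.1).

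The fragments used as viewpoints on chromosome 7 were also higher at the adult genes from HS2. The one in Hbb-b2 had 475, 735 and 859 interactions with HS2 in MFL erythroblasts and 0, 109.6 and 107 in mES cells (9.58-fold). The one in Hbb-b1 had 23 MFL reads against 3 mES reads with HS2, a ratio of 18.1 (95% exact counting interval 5.46 to 94.1), and 19 against 1 with HS1, a ratio of 11.1 (1.77 to 462). From HS1 the fragment in Hbb-b2 had 11 reads against 1, with overlapping groups, and HS90, a site beyond HS60, overlapped from both, on 4 reads or fewer in either cell type.

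On the embryonic genes Hbb-y and Hbb-bh1, nearer to the enhancers, the groups overlapped. Hbb-y had 1905, 1511 and 1399 interactions with HS1 in MFL erythroblasts and 899, 1496 and 964 in mES cells, and 950, 1176 and 703 against 994, 548 and 852 with HS2, with overlap from both. Hbb-bh1 overlapped as well, at 1142 ± 100.5 against 1117 ± 189.9 from HS1 and 787 ± 491.8 against 428 ± 57.3 from HS2. Hbb-bh2, a gene between the embryonic and adult ones, had 7 reads from HS1 in MFL erythroblasts and 0 in mES cells, at least 1.37-fold higher over a floor of 3 reads, and from HS2 4 and 2 reads, with overlapping groups. Per kb of gene and from HS2, Hbb-b1 had 1931 interactions in MFL erythroblasts and Hbb-y 631, whereas in mES cells the order was turned, at 227 and 533.

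The other 28 protein-coding genes within 250 kb, mostly olfactory receptors, had a median of 1 read each from HS1 in either cell type, and of 1 and 4.5 reads from HS2. From HS1, 2 of the 28 were higher without overlap and none lower, and from HS2, 1 was higher and 5 lower. The fragments gave 13.8% higher and 0.362% lower without overlap among the 276 tested from HS1, and 20.8% and 3.54% among the 226 from HS2. Only fragments with a mean of at least 50 were tested, whereas the genes were not filtered, so these shares are not like for like. Olfr631, which lies beyond HS60, had 22 MFL reads against 3 mES reads from HS1, a ratio of 4.29 (95% exact counting interval 1.29 to 22.4), but overlapped from HS2 (512 ± 248.1 against 498 ± 169.0). Olfr68 was the other gene higher from HS1, with 4 reads against 0. Olfr67, beyond the adult genes, was higher from HS2, with 475, 588 and 703 against 157, 219 and 160 interactions (3.30-fold). The 3 genes lower from HS2 by the most, Olfr633, Olfr628 and Olfr622, stood on 15, 7 and 6 reads in mES cells and on 1, 0 and 0 in MFL erythroblasts. For Olfr633 the ratio was 0.157 with an exact counting interval of 0.0037 to 1.02, so even this difference was within counting error.

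The depth of HS1 and HS2 left little for a test of single fragments, since 1 read stood for 77.0 to 237 of every 100000 cis reads in the MFL samples. From HS2, limma called 29 of 226 fragments higher (12.8%) and none lower (0.0%), but neither edgeR nor DESeq2 on the recovered reads called any, although 36 and 6 had an unadjusted p under 0.05. Scaled to interactions within 500 kb, limma called 11 fragments higher and 49 lower, and without MFL replicate 2 or 3 it called none, so these calls depend on the test, the scaling and single samples. From HS1 it called 1 of 276 higher (0.362%) and none lower (0.0%), with 46 fragments under an unadjusted p of 0.05, and edgeR called 3 and DESeq2 none. The HS2 calls were within 51.6 kb. Their leading members were 4 fragments 2.4 to 5.4 kb beyond HS2 on the side away from the genes, for example 111014740 to 111015418, with 1425, 1324 and 1406 interactions in MFL erythroblasts and 575, 493 and 532 in mES cells (log2 fold change 1.35 ± 0.19, adjusted p of 0.00154 in limma), and a fragment 0.1 kb from Hbb-b1 with 950, 1029 and 703 against 0, 0 and 106. The single HS1 call, 2.9 kb away towards Hbb-y, had 1429, 1360 and 746 against 0 in each mES replicate. In bins of 2 kb, limma called 20 of 256 higher (7.81%) and 39 lower (15.2%) from HS2, and 2 of 304 higher (0.658%) and none lower (0.0%) from HS1. Of the 39 lower from HS2, 35 were beyond 100 kb, where 170 of the 256 tested bins lay. With edgeR, 5 bins rose and 4 fell from HS2, and 6 rose from HS1. A bin could pass the filter on its mES values alone, and 1 MFL read was worth more than the pseudocount of 20. With a pseudocount of 200, 14 bins rose and 2 fell from HS2, and with a replicate block 10 rose and 0 fell. The HS2 losses in limma thus depended on these settings. Without mES replicate 1, 2 or 3 limma called 28, 31 and 30 bins from HS1, and without any 1 MFL replicate none.

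The most contacted fragments beyond 10 kb lay in genes and between them. From HS1 the first and second in MFL erythroblasts lay in Hbb-b1, and from HS2 the first in Hbb-b1 and the second in Hbb-b2, with 1128 ± 324.7 and 1000 ± 439.9 interactions against 87.8 ± 80.1 and 53.1 ± 52.3. The third from HS1 was intergenic, 12.2 kb away on the side of Olfr66, with 798 interactions, and the third from HS2 was another intergenic fragment on that side, 111020513 to 111020977, with 974. In mES cells an exonic fragment of the embryonic gene Hbb-bh1 was the first from HS1 and the second from HS2. From HS2 this fragment had 475, 147 and 234 interactions in MFL erythroblasts and 262, 219 and 319 in mES cells, which overlap. The second in mES cells from HS1 lay 0.5 kb from the adult gene Hbb-b1, with 468 ± 212.7 interactions against 721 ± 230.2 in MFL erythroblasts, and the third was intergenic, 13.4 kb away on the side of Olfr66. From HS2 the first in mES cells was intergenic, 3.1 kb from Olfr66, and the third was the fragment 111020513 to 111020977, which held the same place in MFL erythroblasts.

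The balance of HS1 and HS2 was compared as for R1 and R2. The log2 ratio of the HS1 share to the HS2 share in the gene window averaged −0.29 ± 0.25 for MFL erythroblasts and −0.20 ± 1.31 for mES cells (SD, n = 3, exact permutation test, p = 1.0). Over the whole interval the ratio was lower in MFL erythroblasts, at 0.52, 0.58 and 0.53 against 1.02, 1.22 and 0.84 (difference −0.49, exact permutation test, p = 0.1), and over all reporter reads this difference was −0.20 with overlapping groups.

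Distance was the common feature of both loci. From each of the 4 viewpoints a smaller share of cis interactions fell between 100 kb and 1000 kb in MFL erythroblasts. At 100 to 300 kb R1 had 5.49%, 3.86% and 3.83% in MFL erythroblasts and 12.2%, 11.5% and 12.2% in mES cells, 2.73-fold more in the latter, and the corresponding fold was 3.27 from R2, 2.91 from HS1 and 2.52 from HS2. At 300 to 1000 kb the folds were larger from HS1 and HS2, a difference between loci that was not tested. There HS1 had 4.29%, 2.72% and 3.36% in MFL erythroblasts and 24.0%, 21.7% and 20.7% in mES cells, 6.41-fold more, and HS2 4.17% ± 0.71 against 20.1% ± 1.15, 4.81-fold more, while R1 had 7.36% ± 0.24 against 12.7% ± 0.17, 1.72-fold more, and R2 was 1.89-fold. In none of these comparisons did the groups overlap (exact permutation test, p = 0.1 for each).

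The sides of a viewpoint had different folds, and their order depended on the distance. At 100 to 300 kb the fold was larger on the side away from the globin genes, at 3.23 against 2.41 on the globin side from R1, 4.04 against 2.81 from R2, 4.27 against 2.00 from HS1 and 4.14 against 1.69 from HS2, in each case more contacted in mES cells. At 300 to 1000 kb it was larger on the globin side. On the globin side of R1, 2.85% ± 0.11 of the interactions fell at 300 to 1000 kb in MFL erythroblasts and 6.97% ± 0.15 in mES cells, 2.45-fold, but on the other side 4.51% ± 0.15 and 5.69% ± 0.32, 1.26-fold. From R2 the folds were 3.00 and 1.30. From HS1 the globin side was 11.3-fold and the other side 3.84-fold more contacted in mES cells, on 28 and 44 MFL reads. From HS2 the values were 5.46-fold and 4.04-fold. In each of these comparisons the groups did not overlap, and the difference between sides was not tested.

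Above 1000 kb the direction was not the same at every viewpoint. R1 kept 31.1% ± 0.48 of its cis interactions there in MFL erythroblasts and 23.9% ± 2.23 in mES cells, and R2 31.3% ± 1.00 and 23.3% ± 2.36, higher in each MFL replicate (exact permutation test, p = 0.1 for each). From HS2 the share was lower, 40.8% ± 0.57 against 48.0% ± 3.14 (p = 0.1 in the exact permutation test), and from HS1 the groups overlapped (exact permutation test, p = 0.2). Nearby, at 2 to 10 kb, HS1 had 13.8% ± 0.25 against 7.45% ± 0.41 and HS2 16.8% ± 1.04 against 6.62% ± 0.66, whereas R1 fell from 15.3% ± 0.82 in mES cells to 13.2% ± 0.49 in MFL erythroblasts and R2 had 15.7% ± 0.58 against 14.2% ± 0.26. The distance classes were not tested over all reporter reads. On that scale the R2 groups overlapped above 1000 kb, with 1433 of 7593 reads in MFL replicate 2 and 7989 of 39549 in mES replicate 2. At 2 to 10 kb the R2 order was turned, with 557 of 5734, 719 of 7593 and 1749 of 16459 reads in the MFL replicates. The mES replicates had 5762 of 46510, 4266 of 39549 and 5534 of 45567.

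A further WT library of MFL erythroblasts, captured from R1 and R2 and given as 30 h in both its description and its time field, had 23806 cis reads from R1 and 33768 from R2. R1 placed 36.1% of them in the α-globin domain (95% Wilson interval 35.5% to 36.7%) and 8.73% (8.38% to 9.10%) in the gene window, and R2 47.7% (47.1% to 48.2%) and 10.2% (9.87% to 10.5%). At 100 to 300 kb it had 4.13% (3.89% to 4.39%) from R1 and 2.75% (2.58% to 2.93%) from R2. These 6 shares were on the MFL side of the mES range in each case, although the R1 domain share and the R2 share at 100 to 300 kb were under, and the R2 gene window share above, the range of the 3 MFL replicates. At 2 to 10 kb from R2, however, its share of 14.1% (13.8% to 14.5%) was within the mES range of 13.9% to 14.4% and under the 15.2% to 16.3% of the MFL replicates. The intervals cover counting error only.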

How the data were processed

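Contacts of 4 enhancer viewpoints were measured by NG Capture-C in 3 MFL and 3 mES samples, grouped by the labels. The authors trimmed and aligned reads (Trim Galore and Bowtie per the submitters' processing notes, with versions not given in the sources used here) to mm9, and counted them per DpnII fragment. The authors deposited values per viewpoint that sum to 100000 over all reporter reads, a unit like RPM but per 100000. The fragments around each viewpoint were already absent from these values. Dividing by the smallest value gave whole reads for 100.0% of values (within 0.01), and a floor of 3 reads was 29.0 to 82.2 per 100000 cis reads for R1 in MFL samples, 10.4 to 12.3 in mES samples, and 156 to 748 for HS1 and HS2 over all samples.

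Fragments within 1 kb of a viewpoint of the panel were left out, and values were scaled to 100000 cis interactions per viewpoint. Shares and gene sums were compared by two-sided exact permutation of 3 against 3 samples (python 3.11.15, numpy 2.4.6, pandas 2.3.3, scipy 1.17.1). Log2 fold changes of genes and sites are on the scale of value + 20, and folds are ratios of group means. DpnII fragments, and separately 2 kb bins, whose mean over the 6 samples reached 50 were tested in limma 3.58.1 (R 4.3.3) on log2(value + 20), with Benjamini-Hochberg adjustment over all those tested per viewpoint and a threshold of 0.05. As alternatives, edgeR 4.0.16 and DESeq2 1.42.0 were run on the recovered reads, which called 96 and 64 of the R1 fragments. Other alternatives changed the pseudocount, the filter, the scaling, the exclusion, the depth and the replicates. The pipeline was tested on simulated data.

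The text names each fragment used as a viewpoint in the series, protein-coding genes within 250 kb (the globin genes and Nprl3 in full, with the 3 largest changes among the others), up to 5 fragments of smallest adjusted p per viewpoint and direction, of which some are given by range, and the 3 most contacted fragments beyond 10 kb in each cell type. Il9r, Mpg, Rhbdf1 and Snrnp25 were added after their values were seen. The members and lists were chosen with earlier results of these data known. Genes are those of GENCODE vM1 on mm9. Intervals and floors cover counting error only, since reads carry no molecular identifiers.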

Additional observations from a re-analysis of the deposited data

How the results depend on the processing

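The interval shares were recomputed without each sample in turn, scaled to interactions within 500 kb or to all reporter interactions, with other exclusions around viewpoints, with thinned reads and with a replicate block, and 95 of 96 values kept their direction and their side of overlap. For the distance classes and side ratios, which were recomputed without each sample and with other exclusions alone, 190 of 192 and 123 of 128 did, and for the cis shares, recomputed without each sample alone, 24 of 24. In these values no difference between groups that did not overlap turned its direction. The distance classes were not among those rescaled to all reporter reads. On that scale the order from R2 was turned at 2 to 10 kb, as given above, and at 30 to 100 kb. In the latter class the MFL replicates had 709 of 5734, 989 of 7593 and 2098 of 16459 reads. The mES replicates had 7851 of 46510, 5613 of 39549 and 7363 of 45567. The groups overlapped on that scale from R1 at 10 to 30 kb and at 30 to 100 kb, and from R2 at 10 to 30 kb. At 10 to 30 kb from R1, for example, MFL replicate 1 had 598 of 5332 reads. This share lay between those of mES replicate 2, with 3357 of 31322, and mES replicate 1, with 4037 of 31013. Scaling to all reporter interactions gave log2 differences of 0.073 for the α-globin domain from R2, 0.10 and 0.18 for the R1 to R2 ratio in the domain and in the gene window (groups apart), and −0.20 for the HS1 to HS2 ratio in the β-globin interval (groups overlapping). It moved the median log2 change of all tested fragments from 0.00 to −0.17 for R1 and from −0.03 to −0.20 for R2. The cause of the changed calls was not tested.

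Counts of calls depended on the settings, with 75 of 152 within 1.5 times the reported count. For R1 fragments (75 reported), no filter gave 41. For R1 bins (85), a pseudocount of 1 gave 50, a mean of at least 100 gave 54, of at least 10 gave 181, no filter 23 and DESeq2 56. For R2 fragments (108), a mean of at least 10 gave 175, no filter 33 and thinned reads 62. For R2 bins (110), the means of at least 100 and 10 gave 69 and 234, no filter 20 and DESeq2 60. For HS1 fragments (1), pseudocounts of 1 and 200 gave 25 and 6, a mean of at least 100 gave 22, edgeR 3, and the deposited scaling, the 5 kb exclusion, thinned reads and DESeq2 gave 0. For HS1 bins (2), pseudocounts of 1 and 5, both other scalings and DESeq2 gave 0, a pseudocount of 200 and a mean of at least 100 gave 12 each, a mean of at least 10 and no filter 1 each, the 5 kb exclusion 5 and edgeR 6. For HS2 fragments (29), a mean of at least 10, edgeR and DESeq2 gave 0, no filter 13, the 500 kb scaling 60, the deposited scaling 19 and thinned reads 14. For HS2 bins (59), a pseudocount of 200 gave 16, means of at least 100 and 10 gave 26 and 8, no filter 21, the 500 kb and deposited scalings 130 and 18, thinned reads 8, edgeR 9 and DESeq2 11, with 178 bins given no adjusted p by DESeq2. The pseudocount of 200 was added after seeing the data, because 1 read from HS1 or HS2 is worth more than 20. Of the reported fragments, edgeR called 74 of 75 from R1, 97 of 108 from R2, 1 of 1 from HS1 and 0 of 29 from HS2.

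Leaving out 1 sample at a time, the counts ranged from 49 to 100 (R1 fragments), 36 to 99 (R1 bins), 71 to 118 (R2 bins), 0 to 32 (HS1 fragments), 0 to 31 (HS1 bins), 0 to 17 (HS2 fragments) and 32 to 58 (HS2 bins). The log2 difference of the HS1 share beyond 1000 kb ranged from −0.19 to −0.071, its groups parting without MFL replicate 3 or mES replicate 1. The HS1 side ratio ranged from 0.071 to 0.55 at 10 to 30 kb (parting without mES replicate 1), from 0.55 to 1.16 at 70 to 150 kb (without replicate 2 of either group) and from −0.72 to −0.043 at 150 to 500 kb, and that of HS2 from −0.025 to 0.33 (both parting without MFL replicate 2). The R1 to R2 ratio in the gene window ranged from 0.0036 to 0.18 (parting without MFL replicate 1), and the HS1 to HS2 ratio from −0.85 to 0.30 (parting without mES replicate 1).

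Replicate numbers are shared by the groups, and same-numbered samples did not deviate together (correlations of −0.10 to 0.09). Deviations of single fragments were mostly sampling noise, so this cannot decide whether the numbers pair the samples. With the replicate block limma called 72 and 101 fragments from R1 and R2, 0 from HS1 and 28 from HS2, and 98, 119, 0 and 10 bins, and the block changed no other call.

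The depth of HS1 and HS2, at 522 to 3873 reporter reads, gives most single genes few reads, so that for these viewpoints the shares over whole intervals are the firmer values. Of the limma calls from HS2, edgeR and DESeq2 shared 0 of 29 fragments and 9 of 59 bins each, and these calls are the least firm.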

Other observations

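Contacts between the globin loci, which lie on different chromosomes, were looked for among the trans reads. From R1, 0 of 8497 trans reads fell in the β-globin interval in MFL erythroblasts and 0 of 15315 in mES cells, which allows shares of up to 0.0353% and 0.0196%. From R2 there was 1 read of 10397 in MFL erythroblasts and 0 of 19689 in mES cells. In the α-globin domain, HS1 had 0 of 1481 and 0 of 383 trans reads and HS2 0 of 4595 and 0 of 4736, allowing up to 0.203%, 0.783%, 0.0653% and 0.0633%. With 500 kb added on either side of the other locus, R1 had 6 reads in MFL erythroblasts and 2 in mES cells, R2 4 and 4, HS1 3 and 0, and HS2 0 and 0. Contact between the loci was thus not detectable at this depth in either cell type.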
